A study of Homo sapiens with 27 samples.

Results

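The genes described here are 39 genes of homologous recombination, the Fanconi anaemia pathway and the DNA damage checkpoint, chosen by name: each listed symbol was matched to its Entrez ID, and the row with that ID was taken from a table of read counts with 24566 gene rows. All 39 were found, each as 1 row, and all 39 passed the filter on low counts in every fit. By role they are 7 recombination mediators and partners of BRCA1 (BRCA1, BRCA2, BARD1, PALB2, RAD51C, XRCC2, XRCC3), 4 partners of strand exchange (RAD51AP1, RAD52, RAD54L, RAD54B), 7 nucleases, helicases and subunits that resect and hold broken ends (RBBP8, BLM, EXO1, DNA2, MRE11, RAD50, NBN), 8 genes of the Fanconi core complex (FANCA, FANCB, FANCC, FANCE, FANCF, FANCG, FANCL, FANCM), 4 genes that act at or after the ubiquitin step of that pathway (FANCD2, FANCI, UBE2T, BRIP1), 7 checkpoint kinases and partners of ATR (ATM, ATR, ATRIP, CHEK1, CHEK2, CLSPN, TOPBP1) and 2 mediators that gather at breaks (MDC1, TP53BP1).

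Homologous recombination repairs a broken chromosome by copying the intact sister: the ends are trimmed to single strands, BRCA2 and its partners help to build a protein filament on them, and the filament invades the sister chromatid. The Fanconi pathway serves crosslinks between the strands: a core complex with its ubiquitin-conjugating enzyme UBE2T marks FANCD2 and FANCI, and the marked pair hands the lesion to nucleases and to recombination. ATM and ATR are the kinases that sense breaks and stalled forks and pass the signal to CHEK2 and CHEK1, and many genes of the set are known to be transcribed mainly as cells enter S phase.

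The libraries came from A431, a human epidermoid carcinoma line, and MDA-MB-231, a human breast adenocarcinoma line, all collected at 48 h, with 3 replicates in each of 9 groups. A431 was left untreated, given a vehicle control, given Compound Kushen injection (CKI, a medicinal extract of Kushen and Baituling roots used alongside chemotherapy) at 1.0 mg/ml, given doxorubicin, or given both CKI and doxorubicin. MDA-MB-231 was left untreated, given CKI at 1.0 mg/ml, given 5-fluorouracil (5-FU) at 10 ug/ml, or given both CKI and 5-FU. Doxorubicin is an anthracycline that poisons topoisomerase II and breaks DNA, and 5-FU is a pyrimidine analog that starves cells of thymidylate and is built into RNA and DNA. The composition of the vehicle is not given, MDA-MB-231 had no vehicle group, and more than 1 doxorubicin concentration is named without being tied to a library, so none is printed. Each line is a single established culture, and all comparisons with untreated cells within a line share the same 3 untreated libraries. The question put by the design is how CKI and each chemotherapy drug change the transcriptome alone and together.

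Total counts ran from 17757206 to 21756536 in A431 and from 19871048 to 22809339 in MDA-MB-231, and the 39 genes held between 0.0745% and 0.2163% of them. The lowest count of any of the 39 in any library was 40, so that no value here sits near the limit of detection, where 3 counts would be 0.1315 to 0.1689 CPM by the plain totals. CPM is the count scaled to a common library size, elsewhere with TMM factors within each line, so that levels set between the lines share no TMM scale. In untreated cells all 8 A431 markers (EGFR, keratins and other epithelial genes) were DE higher in A431, with a summed level of 9778 to 10560 CPM against 236 to 268 CPM in MDA-MB-231. Of 8 MDA-MB-231 markers (VIM, ZEB1 and other mesenchymal genes) 5 were DE lower in A431, 2 did not pass and 1 was DE higher, with a summed level of 3051 to 3393 CPM in A431 against 6655 to 7254 CPM in MDA-MB-231, so that this list separated the lines only in part. The untreated MDA-MB-231 replicate 1 stood apart from replicates 2 and 3, with a chi-square per degree of freedom of 72.9 and 84.1 against them, while replicates 2 and 3 differed by 2.70. The counts that it moves are given with and without it.

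The 39 genes are protein coding and lie on 19 chromosomes (hg19, the build of the counts). Among the genes to which the results return, XRCC2 (Entrez 7516) lies at chr7:152341861-152373278 on the reverse strand, CLSPN (63967) at chr1:36185819-36235579 on the reverse strand, and EXO1 (9156) at chr1:242011269-242058450. BRCA1 (672) lies at chr17:41196312-41322262 on the reverse strand, BRCA2 (675) at chr13:32889223-32974405, and RAD51AP1 (10635) at chr12:4647964-4669213. CHEK1 (1111) and ATM (472) share a chromosome, at chr11:125495058-125546150 and chr11:108093771-108239829, both on the forward strand. The libraries do not keep strand, so reads in shared bases cannot be assigned with certainty. Exonic bases of 18 of the 39 overlap another gene that has a row of counts, most for XRCC3 (76.7%, KLC1), RAD54B (66%, FSBP), TP53BP1 (28.8%, TUBGCP4), ATRIP (26.7%, TREX1), RAD54L (19.9%, LRRC41) and FANCA (19.6%, ZNF276). These shares take the exons of all annotated transcripts of a gene together.

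Promoter sequence was available in the RefSeq tables (GRCh38.p14) for 35 of the 39 genes, as the 250 bases before and 50 after an annotated start. Because many of these genes are known targets of E2F factors, which switch on S phase genes, each promoter was searched on both strands for TTTCCCGC, TTTCGCGC, TTTGCCGC and TTTGGCGC. A match was present in 7 of the 35, or 20.0%, while 3.99% of all 27305 genes in the tables and 3.31% of all 35116 promoters had one. CCAAT was present in 54.3% of the 35 against 39.72% of all genes, GGGCGG in 80.0% against 48.3%, and the CHR letters TTTGAA or TTCGAA in 14.3% against 19.54%. The genes of the tables were not matched to the 39, which are all protein coding, for gene type or GC content. These are counts of letters and not of bound sites. The 7 promoters with an E2F match are printed, those of XRCC2, EXO1 and CLSPN among them. Each runs from 200 bases before the start to 30 bases after it, 5′ to 3′ on the strand of the gene, and the capitals mark the E2F match (GCGGGAAA and its like are the same letters read from the other strand). CLSPN lies at chr1:35769949-35770178 on the reverse strand, EXO1 at chr1:241848004-241848233 on the forward strand, FANCD2 at chr3:10026237-10026466 on the forward strand, TOPBP1 at chr3:133661912-133662141 on the reverse strand, XRCC2 at chr7:152676112-152676341 on the reverse strand, FANCC at chr9:95317680-95317909 on the reverse strand and FANCA at chr16:89816618-89816847 on the reverse strand.
CLSPN: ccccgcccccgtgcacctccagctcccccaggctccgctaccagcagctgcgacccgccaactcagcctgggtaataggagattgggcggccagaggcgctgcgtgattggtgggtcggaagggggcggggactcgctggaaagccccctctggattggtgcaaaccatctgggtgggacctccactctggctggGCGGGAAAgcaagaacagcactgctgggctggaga
EXO1: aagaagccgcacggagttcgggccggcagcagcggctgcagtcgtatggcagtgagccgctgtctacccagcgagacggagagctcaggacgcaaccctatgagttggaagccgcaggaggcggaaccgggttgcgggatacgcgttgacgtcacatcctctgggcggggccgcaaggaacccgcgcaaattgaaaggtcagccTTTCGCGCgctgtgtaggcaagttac
FANCD2: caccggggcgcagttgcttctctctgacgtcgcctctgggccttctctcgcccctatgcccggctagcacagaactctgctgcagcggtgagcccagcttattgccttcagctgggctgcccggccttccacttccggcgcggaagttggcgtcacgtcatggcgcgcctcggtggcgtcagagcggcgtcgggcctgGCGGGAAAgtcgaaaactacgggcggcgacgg
TOPBP1: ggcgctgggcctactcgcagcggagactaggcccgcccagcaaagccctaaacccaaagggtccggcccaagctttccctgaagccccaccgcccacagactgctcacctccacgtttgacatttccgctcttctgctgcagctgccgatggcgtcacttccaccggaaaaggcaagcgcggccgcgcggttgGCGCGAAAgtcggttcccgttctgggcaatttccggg
XRCC2: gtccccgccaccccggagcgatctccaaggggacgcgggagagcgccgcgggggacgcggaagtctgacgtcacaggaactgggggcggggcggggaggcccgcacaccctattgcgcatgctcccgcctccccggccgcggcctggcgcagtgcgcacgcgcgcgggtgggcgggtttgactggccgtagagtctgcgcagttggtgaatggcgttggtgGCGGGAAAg
FANCC: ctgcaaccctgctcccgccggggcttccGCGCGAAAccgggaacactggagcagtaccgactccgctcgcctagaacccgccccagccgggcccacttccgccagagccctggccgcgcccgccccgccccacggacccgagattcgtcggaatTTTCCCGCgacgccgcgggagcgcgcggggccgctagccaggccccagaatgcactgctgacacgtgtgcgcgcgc
FANCA: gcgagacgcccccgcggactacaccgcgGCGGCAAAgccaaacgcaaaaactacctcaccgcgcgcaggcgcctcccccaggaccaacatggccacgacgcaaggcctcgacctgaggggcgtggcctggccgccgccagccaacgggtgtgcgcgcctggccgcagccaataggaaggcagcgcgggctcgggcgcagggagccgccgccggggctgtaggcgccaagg

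In CLSPN, FANCD2 and TOPBP1 the match spans or touches the start itself, in EXO1 and XRCC2 it lies just inside the transcript, and in FANCA it lies far upstream. FANCC holds 2 matches, and in CLSPN the match overlaps a GGGCGG. Of these 7, XRCC2, EXO1, FANCD2, CLSPN and FANCA were among those that CKI lowered over 2-fold in A431. So were 17 of the 28 genes with promoter sequence and no match. CLSPN and XRCC2 were the 2 genes raised most by 5-FU in MDA-MB-231. The other 4 genes that were DE under 5-FU have no match, and the median log2 fold change under 5-FU was 0.54 over the 7 with a match and 0.57 over the 28 without one.

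On the RPKM scale, which divides CPM by transcript length in kilobases, the set spanned a wide range in untreated cells. UBE2T was the highest of the 39 in both lines, at 76.9 RPKM in A431 and 83.8 RPKM in MDA-MB-231, and BRCA2, the central mediator of recombination, was the lowest, at 0.883 and 1.44 RPKM. The lines differed in their checkpoint kinases. In untreated A431 the CPM of ATM, the kinase for double-strand breaks, was 15.2, 15 and 14.9, and in untreated MDA-MB-231 it was 67.2, 59.3 and 60.1. All 3 MDA-MB-231 libraries stood far above the A431 libraries. ATR, the kinase for stalled forks, ran the other way, with 66.8, 69.9 and 75.0 CPM in A431 and 30.3, 25.0 and 24.7 CPM in MDA-MB-231. CHEK1, the kinase under ATR, was at 32.1, 33.9 and 33.3 CPM in A431 and at 100.1, 82.9 and 79.6 CPM in MDA-MB-231.

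In the fit of both lines, ATM was lower in A431 by a log2 fold change of -1.99 (SE 0.08, edgeR adjusted p = 3.5e-11), CHEK1 by -1.34 (SE 0.09, edgeR adjusted p = 1.8e-08), FANCE of the core complex by -1.55 and the checkpoint adaptor CLSPN by -1.02. ATR was higher in A431 by 1.46 (SE 0.09, edgeR adjusted p = 5.4e-09), as were FANCI (1.44), MDC1 (1.40), BRCA1 (1.36), CHEK2 (1.28), FANCF (1.26) and the BLM helicase (1.16). These 11 genes are the ones past the threshold used throughout, an adjusted p under 0.05 with a change over 2-fold, called DE here: 7 higher and 4 lower in A431, where 22.5% and 20.4% of all 14848 genes tested were DE. The share of the 39 that was DE, in either direction, was not above that background. FANCD2 (0.42), FANCA (0.86) and TP53BP1 (0.66) were higher in A431 and BRCA2 was lower (-0.65), all with an adjusted p under 0.05 and under 2-fold. Without the untreated MDA-MB-231 replicate 1 the count was 12, and CLSPN dropped below the 2-fold line without replicate 3 of that group.

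**Figure D1:**
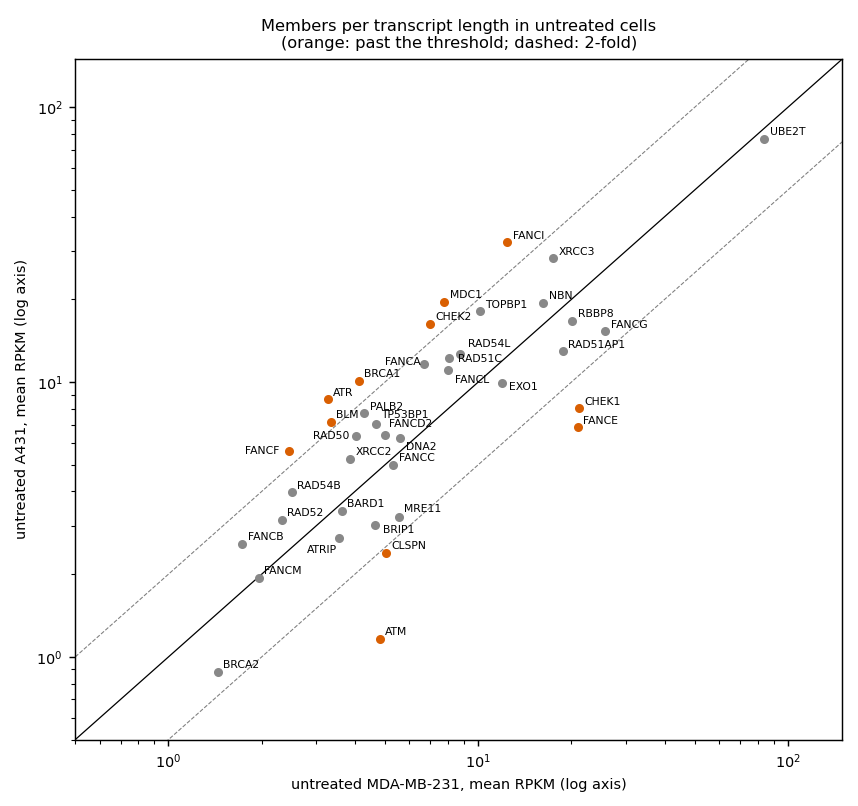
Mean RPKM of each of the 39 genes in untreated A431 (vertical, log axis) against untreated MDA-MB-231 (horizontal, log axis), n = 3 libraries each; orange points are DE between the lines and the dashed lines mark 2-fold. UBE2T sits at the top right at 76.9 and 83.8 RPKM, BRCA2 at the bottom left, and ATM lies farthest below the diagonal.

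**Figure D2:**
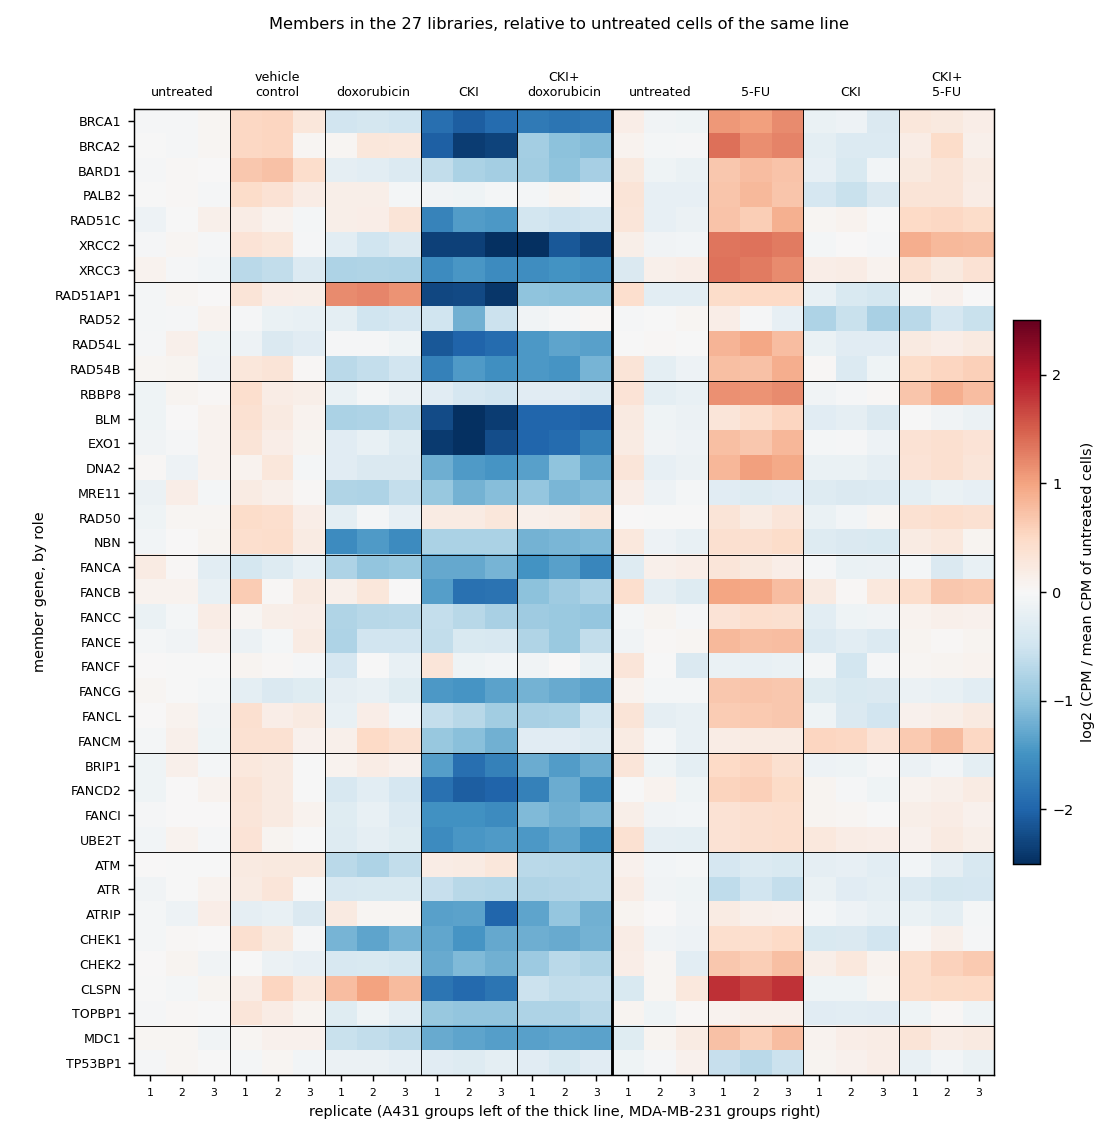
Level of the 39 genes in each of the 27 libraries, as log2 of CPM over the mean CPM of the untreated libraries of the same line; blocks of 3 columns are the groups in the order untreated, vehicle control, doxorubicin, CKI and CKI with doxorubicin for A431, then untreated, 5-FU, CKI and CKI with 5-FU for MDA-MB-231. The A431 CKI block is low for nearly every gene, the 5-FU block is high for most, and the MDA-MB-231 CKI block lies near 0.

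Summed over the 39 genes, untreated A431 had 1641 ± 27.03 CPM (SD, n = 3), doxorubicin 1322 ± 37.5, CKI 785 ± 14.9, both drugs 848 ± 7.64 and the vehicle control 1806 ± 104. Untreated MDA-MB-231 had 1370 ± 104, CKI 1257 ± 11.9, 5-FU 2082 ± 18.2 and CKI with 5-FU 1538 ± 35.4. The summed level was thus lowest in A431 under CKI and highest in MDA-MB-231 under 5-FU, and no library of either group reached into the untreated range of its line.

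Doxorubicin left most of the 39 genes within 2-fold of untreated A431, with 3 exceptions that went in different directions. RAD51AP1, which promotes the pairing of strands, rose, while NBN, the subunit that brings the MRE11 nuclease to breaks, and CHEK1 fell. RAD51AP1 had 26.4, 28.1 and 27.4 CPM in the untreated libraries and 61.8, 64.0 and 59.5 CPM under doxorubicin. Every treated library stood above every untreated one, and the log2 fold change was 1.18 (SE 0.07, edgeR adjusted p = 1.6e-13). NBN had 85.2, 90.1 and 93.6 CPM untreated and 30.1, 33.8 and 30.2 CPM under doxorubicin. The groups did not overlap, and NBN fell by 1.51 on the log2 scale (SE 0.07, edgeR adjusted p = 5e-15). CHEK1 had 32.1, 33.9 and 33.3 CPM untreated and 14.8, 13.4 and 14.7 CPM under doxorubicin, again without overlap, and fell by 1.21 (SE 0.09, edgeR adjusted p = 5.9e-11).

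With 1 of 39 DE upward and 2 downward, the set was below the background of this comparison, in which 23% of the 15881 genes tested were DE higher and 14.3% DE lower. At an adjusted p under 0.05 alone, 4 rose, 25 fell and 10 did not pass, against 40.7% of all genes higher and 39.9% lower. Besides RAD51AP1 the risers were CLSPN (0.86), FANCM, the helicase that anchors the core complex (0.35), and RAD51C (0.21). By role, 5 of the 7 end resection genes fell and none rose, as did 5 of 7 checkpoint genes with only CLSPN rising, 4 of 7 mediators, 4 of 8 core genes, 3 of the 4 around FANCD2 and both break mediators. BRCA1, the ubiquitin ligase that steers repair to recombination, went from 70.5, 70.5 and 74.3 CPM to 51.6, 52.9 and 50.8 CPM, with no overlap and a log2 fold change of -0.47 (SE 0.07, edgeR adjusted p = 9.4e-07). FANCA (-0.89), ATM (-0.69), ATR (-0.39), FANCD2 (-0.36) and TP53BP1, which favours end joining (-0.17), fell as well, and BRCA2 was at 0.21 (SE 0.12, edgeR adjusted p = 0.12) and did not pass. In bulk RNA, less transcript per cell and fewer cells that carry it cannot be told apart.

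The direction of the small changes under doxorubicin depended on the scale. The median log2 fold change of the 39 was -0.28 with TMM factors and -0.19 with RLE factors, but 0.07 with library size alone, where 14 rose and 9 fell and CHEK1 was no longer over 2-fold (-0.87). Library size alone also moved the median of all genes, to 0.36 from 0.02, and 8660 of all 15881 genes rose and 4272 fell at an adjusted p under 0.05. With at least 10 counts required in every library the median of the 39 was -0.11, and 8 rose and 14 fell. In that setting 4889 of all 12485 genes tested rose and 5125 fell. RAD51AP1 was 0.97 once GC content and length were modelled and 0.96 against the vehicle control, with an adjusted p under 0.05 in both, and NBN stayed past the threshold in each alternative tried. Markers of the lines moved both ways under doxorubicin: of the 8 A431 markers 5 fell and 3 rose, with a summed level of 9778 to 10560 CPM untreated and 6916 to 7127 CPM treated, and of the 8 MDA-MB-231 markers 3 fell, 3 rose and 2 did not pass, at 3051 to 3393 CPM and 2835 to 2930 CPM. Their part in the results above was not tested.

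**Figure D3:**
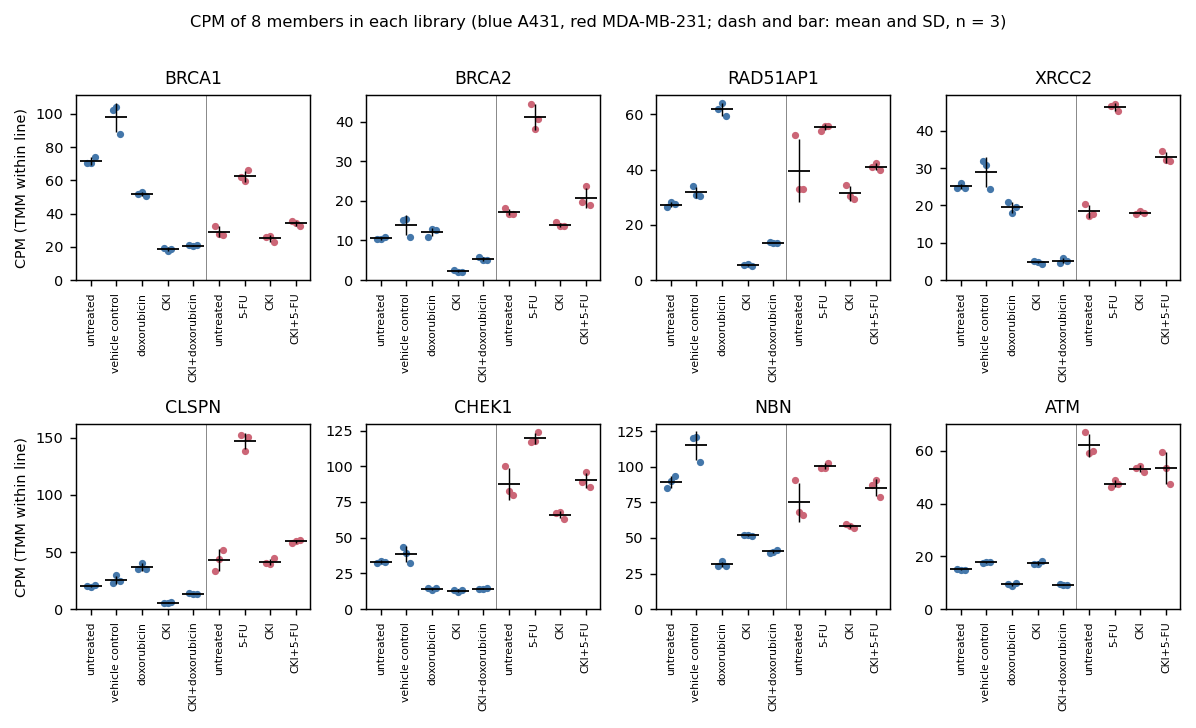
CPM of BRCA1, BRCA2, RAD51AP1, XRCC2, CLSPN, CHEK1, NBN and ATM in every library (points) by group, with the mean and SD of the 3 libraries. RAD51AP1 peaks under doxorubicin at a mean of 61.8 CPM, NBN is lowest there at 31.4 CPM, CLSPN is highest in MDA-MB-231 under 5-FU at 147 CPM, and ATM is several-fold higher in MDA-MB-231 than in A431.

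CKI lowered nearly the whole set in A431. Of the 39 genes, 25 were DE lower and none DE higher, where 10.4% and 12% of all genes tested were, and at an adjusted p under 0.05 alone 35 fell, 2 rose and 2 did not pass, against 33.7% and 33.3% of all genes. The median log2 fold change of the 39 was -1.35 and that of all 15881 genes 0.00. The count was 26 against the vehicle control, where 1305 of all 15881 genes were DE lower and 1795 DE higher. It was 29 once GC content and length were modelled, where 1392 were DE lower and 1874 DE higher.

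The 6 genes lowered most act on the recombining filament and the trimmed end. XRCC2, a mediator of recombination, had 24.7, 25.9 and 24.7 CPM untreated and 4.99, 4.96 and 4.39 CPM under CKI, and fell by 2.39 on the log2 scale (SE 0.12, edgeR adjusted p = 2.1e-14). EXO1, the exonuclease of long-range resection, went from 32.3, 33.7 and 36.5 CPM to 6.49, 6.003 and 7.31 CPM, a fall by 2.37 (SE 0.10, edgeR adjusted p = 1.8e-15). BLM, the helicase that works beside it, went from 35.1, 38 and 39.7 CPM to 7.99, 6.55 and 7.25 CPM, with a log2 fold change of -2.37 (SE 0.09, edgeR adjusted p = 4.9e-16). The fold sizes of these were 5.24, 5.18 and 5.17, and no CKI library came near an untreated one.

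RAD51AP1, the gene that doxorubicin raised, went from 26.4, 28.1 and 27.4 CPM to 5.62, 5.76 and 5.08 CPM under CKI, with a log2 fold change of -2.31 (SE 0.08, edgeR adjusted p = 1.4e-16). BRCA2 went from 10.4, 10.3 and 10.9 CPM to 2.57, 2.03 and 2.12 CPM, a log2 fold change of -2.23 (SE 0.16, edgeR adjusted p = 1.2e-11). RAD54L, the motor that completes strand exchange, went from 38.04, 42.5 and 36.2 CPM to 8.91, 9.77 and 10.3 CPM, a change of -2.01 (SE 0.09, edgeR adjusted p = 2.4e-15). In all 3 genes the treated libraries lay far under the untreated ones.

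By role, the DE counts under CKI in A431 were 5 of 7 mediators (median -1.53), 3 of 4 strand exchange partners (-1.78), 4 of 7 end resection genes (-1.06), 4 of 8 core complex genes (-0.89), all 4 genes around FANCD2 (-1.58), 4 of 7 checkpoint genes (-1.19) and MDC1 of the 2 break mediators. BRCA1 fell by 1.95 (SE 0.07, edgeR adjusted p = 1.8e-16), from 70.5, 70.5 and 74.3 CPM to 19.4, 17.3 and 18.9 CPM. FANCD2, the ubiquitinated centre of the Fanconi pathway, fell by 1.97, CLSPN by 1.86, CHEK1 by 1.35 and FANCA by 1.24. ATR (-0.66) and TP53BP1 (-0.28) fell by less than 2-fold. FANCA and XRCC3 were just under 2-fold when the vehicle control took the place of untreated cells (-0.93 and -0.99). The exceptions were few. RAD50, the arm of the MRE11 complex that tethers ends, rose by 0.23 (SE 0.08, edgeR adjusted p = 0.01) and ATM by 0.22 (SE 0.08, edgeR adjusted p = 0.014), and both rises were lost with GC content and length modelled. PALB2, the bridge from BRCA1 to BRCA2, was at -0.08 (SE 0.08, edgeR adjusted p = 0.34) and FANCF, a core adaptor, at 0.05 (SE 0.11, edgeR adjusted p = 0.68), and neither passed. Among genes with promoter sequence, the 7 with an E2F match had a median of -1.86 and the 28 without one -1.25, which is given as a description.

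**Figure D4:**
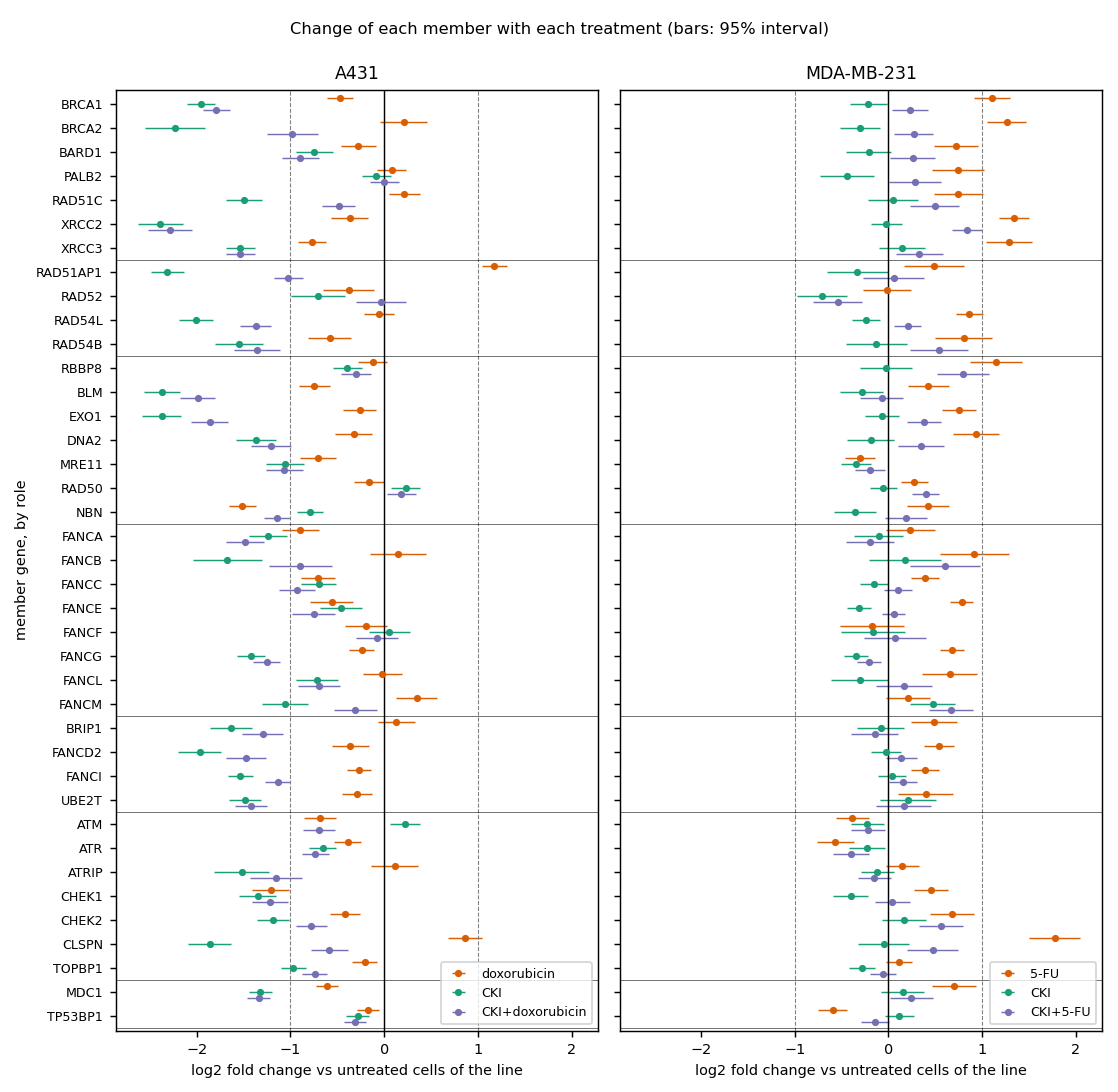
Log2 fold change against untreated cells of the same line, with 95% interval, for each of the 39 genes; the left panel holds doxorubicin, CKI and both in A431, the right panel 5-FU, CKI and both in MDA-MB-231, and dashed lines mark 2-fold. CKI points in A431 have a median of -1.35, 5-FU points a median of 0.54, and the doxorubicin points cluster near -0.28, a median that was 0.07 with library size alone as the scale.

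With both drugs in A431, the set stayed low. Against untreated cells 20 were DE lower and none higher, where 13.8% and 21.7% of all genes were, and 35 fell and 1, RAD50 (0.18), rose, where 38.5% and 40.7% of all genes passed. The median was -1.02. With library size alone as the scale the DE count was 11, where 1307 of all 15881 genes were DE lower and 4490 DE higher. XRCC2 (-2.28), BLM (-1.99), EXO1 (-1.86), BRCA1 (-1.79), XRCC3 (-1.53) and FANCA (-1.49) were lowered most. Of these, XRCC3 was no longer DE when the vehicle control took the place of untreated cells. FANCD2 (-1.47) and CHEK1 (-1.22) were DE, BRCA2 (-0.98), ATR (-0.73), ATM (-0.69) and TP53BP1 (-0.31) fell by less than 2-fold.

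Adding CKI to doxorubicin lowered 14 of the 39 over 2-fold and raised none so far, where 8.03% and 6.89% of all genes were DE. At an adjusted p under 0.05 alone 31 were lower and 3 higher, where 29.8% and 33.8% of all genes were, with a median of -0.70. RAD51AP1 had 61.8, 64.0 and 59.5 CPM under doxorubicin and 13.6, 13.4 and 13.4 CPM with CKI added, below even the untreated libraries, and its log2 fold change was -2.20 (SE 0.07, edgeR adjusted p = 3.5e-17). CLSPN, also raised by doxorubicin, went from 34.7, 40.7 and 35.1 CPM to 13.97, 13.2 and 13.4 CPM, a change of -1.44 (SE 0.09, edgeR adjusted p = 3.7e-12). The others of the top 6 were XRCC2 (-1.92), EXO1 (-1.60), the helicase BRIP1 (-1.42) and BRCA1 (-1.32). BRCA2 (-1.19) and FANCD2 (-1.11) were DE and FANCA (-0.59), ATR (-0.34) and TP53BP1 (-0.14) fell by less. ATM and CHEK1 were both at -0.01, with 95% intervals of -0.21 to 0.20 for CHEK1, and did not pass. The 3 higher were NBN (0.37), RAD52, a strand annealing factor (0.35), and RAD50 (0.35).

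Seen from CKI, doxorubicin raised 4 of the 39 over 2-fold and lowered none so far, where 16.6% and 9.06% of all genes were DE, and 16 were higher and 5 lower at an adjusted p under 0.05, where 38.5% and 34.8% of all genes were. RAD51AP1 went from 5.62, 5.76 and 5.08 CPM under CKI to 13.6, 13.4 and 13.4 CPM with both (1.29, SE 0.09, edgeR adjusted p = 1.4e-11), and CLSPN from 5.72, 5.26 and 5.77 CPM to 13.97, 13.2 and 13.4 CPM (1.28, SE 0.11, edgeR adjusted p = 8.2e-10). BRCA2 rose by 1.25 and RAD51C, a further mediator, by 1.01, a value at the edge that dropped below 1 in 6 of the alternatives. ATM was lower with both drugs than with CKI (-0.92, SE 0.08, edgeR adjusted p = 7e-10), as FANCA was (-0.25), while FANCD2 was higher (0.50). BRCA1 (0.16), CHEK1 (0.13), ATR (-0.08) and TP53BP1 (-0.03) did not pass. The 5 lower became 3 without CKI replicate 2, CKI replicate 3 or combination replicate 3.

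The test of the difference itself, the interaction of CKI with doxorubicin, was positive for most of the set: a positive value means that the log2 fold change made by CKI was higher in the presence of doxorubicin than in its absence, whether less negative or turned positive. At an adjusted p under 0.05, 27 of 39 were positive and none negative, where 31.4% and 26% of all genes were, and 5 were past 2-fold, where 8.56% and 10.9% of all genes were. CHEK1 had the largest value, 1.34 (SE 0.14, edgeR adjusted p = 2.4e-08). Its libraries had 13.4, 11.9 and 13.7 CPM under CKI, 14.8, 13.4 and 14.7 under doxorubicin and 14.3, 13.8 and 14.7 under both, against 32.1 to 33.9 untreated, so each treatment gave nearly the same low level. NBN followed at 1.16 (SE 0.10, edgeR adjusted p = 1e-09), with 52.0, 51.8 and 51.6 CPM under CKI, 30.1, 33.8 and 30.2 under doxorubicin and 39.5, 40.5 and 41.6 under both. Here the combination lay between the single drugs, so that CKI lowered NBN when given alone and raised it when added to doxorubicin. BLM was at 1.12 (SE 0.13, edgeR adjusted p = 1.8e-07), RAD52 at 1.05 and BRCA2 at 1.04. FANCD2 (0.86), FANCA (0.65), BRCA1 (0.63) and ATR (0.31) were positive within 2-fold, and TP53BP1 (0.14) and ATM (-0.23, edgeR adjusted p = 0.093) did not pass. With library size alone 2 stayed past 2-fold, CHEK1 and NBN. BRCA2 was no longer past it without CKI replicate 2, doxorubicin replicate 1 or combination replicate 1, nor RAD52 without CKI replicate 2 or doxorubicin replicate 2.

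The vehicle control differed from untreated A431 in small steps. No gene of the 39 was DE, where 1.05% and 1.5% of all genes were DE higher and lower, and DESeq2 called none either. At an unadjusted p under 0.05 24 passed, a rule for which the share of all genes was not counted. By edgeR 17 were higher and 4 lower at an adjusted p under 0.05, where 23.2% and 19.3% of all genes were. The 17 became 9 without vehicle control replicate 1 and 9 without untreated replicate 1. Among all genes the number higher became 3068 and 2998 of 16344 in those settings, from 3682 of 15881. The vehicle libraries differed among themselves, with a chi-square per degree of freedom of 28.5 between replicates 1 and 3. BARD1, the partner of BRCA1, was higher by 0.62 (SE 0.09, edgeR adjusted p = 1.1e-05), BRCA1 by 0.45, BRCA2 by 0.39, ATM by 0.24, CHEK1 by 0.22 and ATR by 0.18, and XRCC3 was lower by -0.54 and FANCA by -0.31. FANCD2 (0.18) and TP53BP1 (-0.03) did not pass. The median of the 39 was 0.18 and became -0.05 with GC content and length modelled, where 3 were higher and 6 lower. In that setting 1841 of all 15881 genes were higher and 1726 lower.

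In MDA-MB-231, 5-FU moved the set the other way. Of the 39 genes 6 were DE higher and none DE lower, where 6.01% and 7.31% of all 13999 genes tested were, and 29 rose and 4 fell at an adjusted p under 0.05, where 28.6% and 28.5% of all genes did. The median was 0.54, and that of all genes -0.00. The largest rise was in CLSPN, the adaptor through which ATR activates CHEK1, which had 33.1, 44.2 and 51.7 CPM untreated and 152, 139 and 151 CPM under 5-FU. Every treated library was far above every untreated one, and the log2 fold change was 1.78 (SE 0.12, edgeR adjusted p = 3e-07). XRCC2 had 20.3, 17.2 and 17.7 CPM untreated and 46.6, 47.3 and 45.3 CPM under 5-FU, a rise of 1.33 (SE 0.07, edgeR adjusted p = 4.6e-08), with no overlap. BRCA2 had 18.2, 16.7 and 16.8 CPM untreated and 44.6, 38.3 and 40.8 CPM under 5-FU, a rise of 1.26 (SE 0.10, edgeR adjusted p = 5e-07), again with no overlap.

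The other 3 were XRCC3, RBBP8 and BRCA1. XRCC3, which forms a complex with RAD51C, had 35.0, 49.2 and 50.2 CPM untreated and 114, 111 and 102 CPM under 5-FU (1.28, SE 0.11, edgeR adjusted p = 1.8e-06), a gene most of whose exonic bases are shared with KLC1. RBBP8, the factor that starts resection, had 84.1, 55.7 and 58.3 CPM untreated and 146, 143 and 150 CPM under 5-FU (1.15, SE 0.13, edgeR adjusted p = 1.1e-05). BRCA1 had 32.8, 27.5 and 27.3 CPM untreated and 62.0, 59.7 and 66.2 CPM under 5-FU (1.10, SE 0.09, edgeR adjusted p = 7.8e-07). Untreated replicate 1 was the lowest library for CLSPN and XRCC3 and the highest for RBBP8 and BRCA1. Without it the 4 values were 1.62, 1.14, 1.36 and 1.19, with 8 genes DE and 31 higher at an adjusted p under 0.05. In that setting 952 of all 14193 genes tested were DE higher and 1181 DE lower. At an adjusted p under 0.05 alone 4960 were higher, against 3998 of 13999 with that library.

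By role, all 7 mediators rose under 5-FU (median 1.10), as did 3 of 4 strand exchange partners (0.64), 6 of 7 end resection genes (0.43), 5 of 8 core genes (0.52), all 4 around FANCD2 (0.44), and 3 of 7 checkpoint genes (0.15). FANCD2 rose by 0.54 and CHEK1 by 0.45, and FANCA was at 0.23 (SE 0.12, edgeR adjusted p = 0.11) and did not pass. The 4 that fell were TP53BP1 (-0.59, SE 0.07, edgeR adjusted p = 2e-05), ATR (-0.57), ATM (-0.39) and MRE11 (-0.30). TP53BP1 went from 45.2, 47.8 and 52.3 CPM to 32.4, 30.4 and 33.5 CPM, and ATM from 67.2, 59.3 and 60.1 CPM to 46.3, 48.9 and 47.6 CPM. In neither did the groups overlap.

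CKI alone changed the set little in MDA-MB-231. None of the 39 was DE, where 3.76% and 2.21% of all genes were DE higher and lower, and DESeq2 called none either. At an unadjusted p under 0.05 16 passed, with the share of all genes not counted for that rule. At an adjusted p under 0.05 by edgeR 11 were lower and 1 higher, where 18.8% and 17.4% of all genes were. The other 27 did not pass, and the median was -0.15. XRCC2, which CKI lowered most in A431, had 20.3, 17.2 and 17.7 CPM untreated and 17.8, 18.4 and 18.1 CPM under CKI here. The groups overlapped, at -0.02 with a 95% interval of -0.19 to 0.14. RAD52 fell by 0.71 (SE 0.12, edgeR adjusted p = 0.00084), PALB2 by 0.44, CHEK1 by 0.40, BRCA2 by 0.30 and ATM by 0.23, and FANCM rose by 0.47 (SE 0.11, edgeR adjusted p = 0.0051). BRCA1 (-0.21), ATR (-0.23), FANCA (-0.11), FANCD2 (-0.03) and TP53BP1 (0.12) did not pass. Without untreated replicate 1 there was still no DE gene, and 6 were higher and 14 lower at an adjusted p under 0.05. All genes gained calls as well in that setting, with 3582 higher and 3780 lower of 14193, against 2429 and 2637 of 13999. The 11 lower became 6 without CKI replicate 2 and 7 without CKI replicate 3.

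With CKI added to 5-FU, most of the rise made by 5-FU was smaller. Against untreated cells none was DE by edgeR, where 4.29% and 4.76% of all genes were, and none by DESeq2. At an unadjusted p under 0.05 24 passed, with the share of all genes not counted for that rule. At an adjusted p under 0.05 15 were higher and 5 lower, where 26% and 23.7% of all genes were, and the median was 0.16. XRCC2 (0.84), RBBP8 (0.80), FANCM (0.67) and CHEK2, the kinase under ATM (0.56), were the highest, BRCA2 (0.27) and BRCA1 (0.23) passed, ATR (-0.40) and ATM (-0.22) were lower, and FANCD2 (0.14), CHEK1 (0.04), TP53BP1 (-0.14) and FANCA (-0.20) did not pass. Without untreated replicate 1, 1 gene was DE and 23 were higher and 6 lower. All genes also gained calls in that setting, with 4918 higher and 4643 lower of 14193, against 3644 and 3313 of 13999. Of these 14193, 756 were DE higher and 918 DE lower. The 5 lower became 3 without combination replicate 2 and 2 without combination replicate 3. Against 5-FU alone, 26 of the 39 were lower and 2 higher, where 24.5% and 25.9% of all genes were, with a median of -0.40, and 1 was DE, where 4.51% of all genes were DE lower and 5.26% DE higher. That gene was CLSPN, with 152, 139 and 151 CPM under 5-FU and 58.1, 59.8 and 60.8 CPM with both (-1.31, SE 0.12, edgeR adjusted p = 4.8e-06). The combination libraries lay above the untreated ones and far under those with 5-FU alone. BRCA2 (-0.99), XRCC3 (-0.96), FANCG (-0.88), BRCA1 (-0.87), FANCA (-0.43), CHEK1 (-0.41) and FANCD2 (-0.40) were lower, FANCM (0.46) and TP53BP1 (0.45) were higher, and ATM (0.17) and ATR (0.16) did not pass. With RLE factors, GC and length modelled, or DESeq2 the DE count was 2.

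Seen from CKI, adding 5-FU raised 20 of the 39 and lowered TP53BP1 (-0.26) at an adjusted p under 0.05 by edgeR, where 22.1% and 20% of all genes passed. None was DE by edgeR or DESeq2, where 1.26% and 2.54% of all genes were by edgeR. At an unadjusted p under 0.05 25 passed, with the share of all genes not counted for that rule. XRCC2 (0.86) and RBBP8 (0.82) were the highest. BRCA2 (0.57), CHEK1 (0.45) and BRCA1 (0.44) rose within 2-fold, and FANCD2 (0.16), ATM (0.01), FANCA (-0.09) and ATR (-0.17) did not pass. The interaction of CKI with 5-FU was negative for 12 and positive for 4 of the 39 at an adjusted p under 0.05, where 14.3% and 17.1% of all genes were. Without untreated replicate 1, 23 were negative, where 3363 of all 14193 genes were, against 2007 of 13999 with that library. The interaction was past 2-fold for 2, both negative, where 3.81% of all genes were DE negative and 3.04% DE positive. CLSPN was at -1.25 (SE 0.17, edgeR adjusted p = 0.0003): CKI left it at 40.1, 39.8 and 44.5 CPM, within the untreated range, and its level under 5-FU was far higher than under both. XRCC3 was at -1.10 (SE 0.16, edgeR adjusted p = 0.0004) and at -0.95 without untreated replicate 1. BRCA2 (-0.69), BRCA1 (-0.66) and FANCD2 (-0.38) were negative, ATR (0.40), ATM (0.39) and TP53BP1 (0.33) positive, and FANCA (-0.32) did not pass, nor did CHEK1, with an edgeR adjusted p = 0.98.

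**Figure D5:**
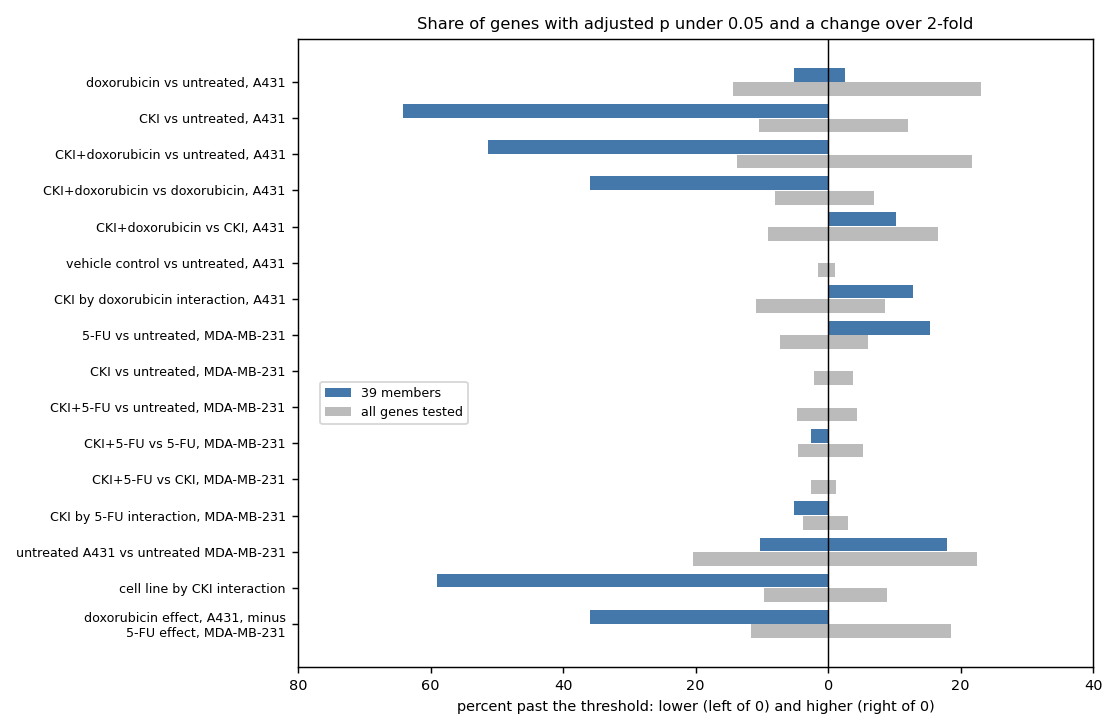
Percent of genes past the threshold (adjusted p under 0.05 and over 2-fold) in each of the 16 comparisons, lower to the left and higher to the right, for the 39 genes (blue) and for all genes tested (grey). The bars of the 39 are far longer than grey on the lower side for CKI in A431, with 25 genes against 10.4% of all, and shorter than grey on both sides for doxorubicin, where library size alone as the scale turned the median of the 39 to 0.07.

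The effect of CKI differed between the lines by its own test. In the interaction of line with CKI, 23 of 39 genes were past 2-fold in the direction of a stronger lowering in A431 and none in the other, where 9.62% and 8.87% of all genes were, and 31 were negative and 2 positive at an adjusted p under 0.05, where 23.9% and 23.1% of all genes were. XRCC2 was at -2.36 (SE 0.14, edgeR adjusted p = 4.4e-08), EXO1 at -2.30 (SE 0.15, edgeR adjusted p = 1.3e-07) and BLM at -2.08 (SE 0.16, edgeR adjusted p = 5.2e-07). RAD51AP1 (-1.97), FANCD2 (-1.94) and BRCA2 (-1.92) followed, and further down came BRCA1 (-1.73), FANCA (-1.13), CHEK1 (-0.94), ATR (-0.42) and TP53BP1 (-0.39). ATM (0.46) and RAD50 (0.29) were the positive ones. The count was 23 also without the untreated MDA-MB-231 replicate 1. The same CKI concentration is named for both lines. How far each line's growth was slowed was not measured here.

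Set side by side, doxorubicin in A431 and 5-FU in MDA-MB-231 differed for 14 of the 39 past 2-fold, all lower under doxorubicin, where 11.7% of all genes were DE lower and 18.5% higher, and 28 were lower and 2 higher at an adjusted p under 0.05, where 28.2% and 29.2% of all genes were. Drug and line cannot be told apart in this contrast, since neither drug was given to both lines. XRCC3 was at -1.97 (SE 0.16, edgeR adjusted p = 3.8e-07), NBN at -1.86 (SE 0.15, edgeR adjusted p = 3.6e-07) and XRCC2 at -1.62 (SE 0.12, edgeR adjusted p = 1.8e-07). CHEK1 (-1.58), BRCA1 (-1.49) and FANCA (-1.05) were past 2-fold as well, and BRCA2 (-0.97) and FANCD2 (-0.82) were lower within it. NBN fell by 1.51 under doxorubicin in A431, and 5-FU raised it by 0.42 in MDA-MB-231, from 90.5, 68.4 and 66.0 CPM to 98.9, 99.3 and 103 CPM. RAD51AP1 (0.77) and TP53BP1 (0.50) were the 2 higher, and ATR (0.26) and ATM (-0.22) did not pass. Without untreated replicate 1 the count was 16, and leaving out each library in turn gave 12 to 16. The DE call of FANCA was lost in 7 of the alternatives tried, that of CHEK2 in 8, FANCC in 6 and BLM in 2. RLE factors and DESeq2 were among these for FANCA, CHEK2 and FANCC.

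Over all 9 groups, CLSPN had the widest range, 26.4-fold, from a mean of 5.58 CPM in A431 under CKI to 147 CPM in MDA-MB-231 under 5-FU, followed by BRCA2 (18.4-fold), RAD51AP1 (11.3-fold) and EXO1 (10.5-fold). All 4 were lowest in A431 under CKI. Within A431, RAD51AP1 ranged 11.3-fold, from 5.49 CPM under CKI to 61.8 CPM under doxorubicin, while FANCF ranged 1.19-fold and TP53BP1 1.24-fold. In MDA-MB-231 CLSPN ranged 3.55-fold and FANCF 1.19-fold. These ranges compare means, between the lines without a shared TMM scale, and carry no test.

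Genes of the same pathways outside the 39 were read from lists by function, with counts at an adjusted p under 0.05. The share of all genes that passed was 33.7% lower and 33.3% higher under CKI in A431, 39.9% lower and 40.7% higher under doxorubicin, 28.5% lower and 28.6% higher under 5-FU, and 18.8% lower and 17.4% higher under CKI in MDA-MB-231. Of 28 other recombination and resection genes, 22 fell and 1 rose under CKI in A431, 15 fell and 7 rose under doxorubicin, 17 rose and 3 fell under 5-FU, and 3 rose and 3 fell under CKI in MDA-MB-231. WRN (-1.63) and SLX4 (-1.53) fell most clearly under doxorubicin, and RECQL5 (0.42) and MCM8 (0.53) rose. Of 13 other Fanconi genes in A431, 7 fell and 4 rose under each of doxorubicin and CKI. FAAP100, a core subunit, was among the strongest falls under doxorubicin (-3.62, SE 0.15, edgeR adjusted p = 8.9e-16), with CENPX at -1.71, while the nuclease ERCC4 (1.08) and WDR48 (0.77) rose. In MDA-MB-231 14 could be tested, and under 5-FU 7 rose and 2 fell.

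Of 28 other checkpoint and break signalling genes, 13 fell and 3 rose under doxorubicin, 18 fell and 4 rose under CKI in A431, and 12 rose and 4 fell under 5-FU. H2AX, the histone that marks breaks, fell by 2.69 under doxorubicin (SE 0.13, edgeR adjusted p = 6.3e-15) and by 2.47 under CKI in A431, and was at -0.03 under 5-FU (SE 0.17, edgeR adjusted p = 0.9). BABAM2 fell by 1.97 under doxorubicin, and the phosphatases PPM1D (1.12) and CDC25B (0.83) rose. Of 9 end joining genes, 7 fell and 2 rose under doxorubicin and likewise under CKI in A431, and 5 rose under 5-FU. PAXX (-2.75) and PRKDC (-1.51) fell under doxorubicin, and LIG4 (0.47) and DCLRE1C (0.65) rose.

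Genes of S and G2/M phase were read beside the set, and their part in its changes was not tested. All 25 of them were DE lower under CKI in A431 (median -1.89), 21 fell and 3 rose under doxorubicin (median -0.66), 25 were lower with CKI added to doxorubicin, and in MDA-MB-231 10 rose and 8 fell under 5-FU (median -0.00) and 11 fell and 2 rose under CKI. The replication helicase subunits MCM5 (-1.64) and MCM6 (-1.34) fell under doxorubicin, and CCNE2 (0.97) and CDC6 (0.30) rose. Among 16 E2F and DREAM regulators, 11 fell and 4 rose under CKI in A431, 7 fell and 8 rose under doxorubicin, and 11 rose and 1 fell under 5-FU, so that under doxorubicin their shares were close to those of all genes. E2F1 fell by 2.06 under CKI in A431 and rose by 0.74 under doxorubicin, and was at 0.14 under 5-FU (SE 0.10, edgeR adjusted p = 0.25). CDKN1A, the kinase inhibitor that halts the cycle, rose by 2.55 under CKI in A431, 1.72 under doxorubicin, 1.54 under 5-FU and 0.37 under CKI in MDA-MB-231. Of the repressors, E2F8 fell by 1.33 under CKI in A431 and rose by 1.35 under 5-FU, and E2F7 fell by 0.23 under doxorubicin and rose by 0.63 under 5-FU, and RBL1 (-1.48) and RB1 (-1.16) fell under doxorubicin.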

How the data were processed

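The series holds 27 RNA-seq libraries, 3 in each of 9 groups, and the labels describe the 3 as biological replicates with numbered titles. The authors deposited one table of whole-number read counts per gene, not normalized. Per the labels and the submitters' processing notes, total RNA was sequenced as unstranded paired ends, trimmed with Trim Galore 0.3.7 and aligned to hg19 with STAR 2.5.3a. The notes also name edgeR with no version, and the counter is not given in the sources used here. Every column of counts was matched to a library, and every row names a gene.

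From the counts, genes with low values were removed with filterByExpr and libraries scaled with TMM factors (edgeR 4.0.16, R 4.3.3). Factors for CPM, RPKM and the fits of a single line were computed within that line. Fits across lines used factors computed over the libraries of both, so CPM and RPKM share no TMM scale between lines. The quasi-likelihood test was fitted on 15881 genes over the 15 A431 libraries, 13999 genes over the 12 MDA-MB-231 libraries, 14848 genes for comparisons of the lines and 15893 for the difference between the drugs, with two-sided p-values adjusted over all genes tested (Benjamini-Hochberg). DE genes had an adjusted p below 0.05 together with a log2 fold change above 1 or below -1. The SE is the log2 fold change over the square root of F, and intervals are 95% intervals. RPKM uses the length of the canonical transcript (GRCh37 annotation), and CPM and RPKM carry counting error that 3 replicates only partly show.

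In each comparison the text names the 6 DE genes of largest change in each direction whose libraries do not overlap (for interactions the 3 largest past the threshold), always BRCA1, BRCA2, FANCD2, FANCA, CHEK1, ATM, ATR and TP53BP1, and from each companion list the 2 genes of smallest adjusted p in each direction under doxorubicin with E2F1, E2F7, E2F8, H2AX and CDKN1A. A further gene of this rule is not reported here. Other genes named complete a count or were chosen after their values were seen. The members and lists were chosen with earlier results of these data known. The replicate numbers were checked and do not pair the libraries. Alternatives were RLE factors, library size alone, no filter, at least 10 counts in every library, the compared groups alone, a replicate block, GC and length offsets (lowess span 0.3), DESeq2 1.42.0, the vehicle control as reference, an adjusted p alone, and each library left out. On simulated counts 200 genes were changed, as many up as down, by 1.5 or 3 on the log2 scale. For doxorubicin (14929 genes) the test recovered 99% of those changed by 1.5 and 100% of those changed by 3. The shares were 98% and 100% for 5-FU (13828 genes) and 91% and 100% for CKI by doxorubicin (14931 genes). For cell line by CKI (14705 genes) they were 86% and 93%. These runs do not test changes near the 2-fold line. Nor do they test the scaling where a large share of genes moves, as under doxorubicin, where 23% and 14.3% of all genes were DE higher and lower.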

Additional observations from a re-analysis of the deposited data

Results flagged for a closer look

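The results flagged here are differences between the effects of one treatment under a second condition, each tested as a difference in edgeR's quasi-likelihood fit with 3 libraries in each group. In A431, 5 of the 39 genes were past the threshold for the interaction of CKI with doxorubicin, where 8.56% of all genes were DE positive and 10.9% DE negative. The named ones were CHEK1 (1.34), NBN (1.16) and BLM (1.12). A positive value means that the log2 fold change made by CKI was higher with doxorubicin present, which for NBN turned it from negative to positive. In MDA-MB-231, 2 were past it for the interaction of CKI with 5-FU, CLSPN (-1.25) and XRCC3 (-1.10), where 3.04% of all genes were DE positive and 3.81% DE negative. With both directions pooled, neither share of the 39 was above that of all genes. The 5 were all positive and the 2 both negative, and in that direction alone each share was slightly above that of all genes.

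For the interaction of cell line with CKI 23 genes were past the threshold, led by XRCC2 (-2.36), EXO1 (-2.30) and BLM (-2.08), all with the stronger lowering in A431. Of all genes 9.62% were DE negative and 8.87% DE positive there. For doxorubicin in A431 minus 5-FU in MDA-MB-231 14 were past it, led by XRCC3 (-1.97), NBN (-1.86) and XRCC2 (-1.62), where 11.7% of all genes were DE lower and 18.5% DE higher. In that contrast drug and line cannot be told apart.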

How the results depend on the processing

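No DE value changed sign under any alternative tried, although the median of the 39 did under doxorubicin (library size alone) and for the vehicle control (GC and length offsets), and of 10296 comparisons of a gene's value under an alternative, 10120 kept their side of the threshold, 98 lost it and 78 gained it. With an adjusted p alone as the rule, the counts of the 39 called follow, with the shares of all genes higher and lower in brackets. They were 29 for doxorubicin (40.7%, 39.9%), 21 for the vehicle control (23.2%, 19.3%) and 27 for CKI by doxorubicin (31.4%, 26%). CKI with doxorubicin had 36 against untreated (40.7%, 38.5%), 34 against doxorubicin (33.8%, 29.8%) and 21 against CKI (38.5%, 34.8%). In MDA-MB-231 they were 33 for 5-FU (28.6%, 28.5%), 12 for CKI (17.4%, 18.8%) and 16 for CKI by 5-FU (17.1%, 14.3%). CKI with 5-FU had 20 against untreated (26%, 23.7%), 28 against 5-FU (25.9%, 24.5%) and 21 against CKI (22.1%, 20%). Across lines they were 32 between untreated cells (41.9%, 36.7%) and 30 for doxorubicin minus 5-FU (29.2%, 28.2%). With library size alone CKI with doxorubicin against untreated gave 11, and CKI by doxorubicin 2, or 3 with at least 10 counts in every library. For CKI by doxorubicin, 1028 of all 15881 genes were DE positive and 2091 DE negative with library size alone. With at least 10 counts they were 952 and 1165 of 12485. CKI with 5-FU against 5-FU gave 2 with RLE factors, with GC and length offsets, with those offsets and the block, and with DESeq2, and CKI by 5-FU gave 1 with GC and length offsets with or without the block. Leaving out each library in turn gave 3 to 5 for CKI by doxorubicin, 0 to 1 for CKI with 5-FU against untreated, 1 to 2 against 5-FU and 1 to 2 for CKI by 5-FU. It gave 12 to 16 for doxorubicin in A431 minus 5-FU in MDA-MB-231. The cause of these changes was not tested. The replicate numbers only number the libraries, and a replicate block changed no gene's call, with counts of 3 for doxorubicin, 25 for CKI in A431 and 6 for 5-FU. The correlation of deviations between same-numbered libraries ran from -0.151 to 0.075 in A431, where 5 of 15 libraries were closest to their own number, and from -0.295 to 0.121 in MDA-MB-231, where 1 of 12 was.

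The summed CPM of the 39 genes moved with the scale. With library size alone it was 1476 in untreated A431, 761 with CKI, 1510 with doxorubicin, 949 with both and 1621 with vehicle, and in MDA-MB-231 1244 with CKI, 2147 with 5-FU and 1601 with both. With RLE factors it was 1603 in untreated A431, 1374 with doxorubicin and 874 with both. The 3 replicates in each group, bulk RNA and 1 time point limit what the values show, and small changes depend on the scale.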
